A study of Mus musculus with 108 samples.

Results

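The complement genes described here are C1qa, C1qb, C1qc, C3, C4b, Cfb, Cfp, C3ar1 and C5ar1, the rows with these symbols in the table of the whole series, 9 of 49585 rows. They were followed through every library of the series. Myeloid cells, purified by flow cytometry, gave the RNA counts, and their hosts were athymic nude mice on a Balb/C background (CAnN.Cg-Foxn1nu/Crl), which carry the nude mutation of Foxn1 and lack normal T cells. All 28 groups share this background. Cells of 4 kinds came from brains with lung-to-brain metastases: microglia, bone marrow-derived macrophages (BMDM), inflammatory monocytes and granulocytes. Without radiotherapy each kind was taken at the stages labelled large (5 libraries each) and small (5 of microglia and of BMDM, 4 of monocytes and of granulocytes). Whole-brain radiotherapy of 5x2 Gy gave 4 libraries of each kind at day 3, 4 at day 5 and 3 at day 10, and that of 1x10 Gy gave 3 at day 3, with no stratification by stage. Mice without tumours gave 4 libraries of microglia and 4 of blood monocytes. A further 6 tumour-free microglia libraries, 3 for day 3 and 3 for day 5, have 5x2 in the title but none in the radiotherapy field, and are here called titled 5x2. The labels give no age, sex or gating markers. Nothing says that replicates are different animals, and p-values thus cover only the spread between libraries, which may be technical.

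Complement is a set of proteins, mostly secreted, that tags particles and damaged cells and calls in phagocytes. C1q, built from the products of C1qa, C1qb and C1qc, recognises targets and starts the classical route, in which C4 and then C3 are cleaved. Factor B (Cfb) forms the convertase of the alternative route and properdin (Cfp) stabilises it. The fragments C3a and C5a act on the G protein-coupled receptors encoded by C3ar1 and C5ar1. In the brain, microglia are a known source of C1q, and complement is known for tagging synapses for removal.

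On GRCm38 all 9 genes are protein-coding and lie on the minus strand in GENCODE M21. C1qa (ENSMUSG00000036887, 4:136895917-136898803), C1qc (ENSMUSG00000036896, 4:136889804-136893065) and C1qb (ENSMUSG00000036905, 4:136880129-136886187) are neighbours on chromosome 4. C4b (ENSMUSG00000073418, 17:34728380-34743882), Cfb (ENSMUSG00000090231, 17:34856374-34862518) and C3 (ENSMUSG00000024164, 17:57203970-57228136) are on chromosome 17. Cfp (ENSMUSG00000001128) is at X:20925454-20931555, C3ar1 (ENSMUSG00000040552) at 6:122847138-122856161 and C5ar1 (ENSMUSG00000049130) at 7:16246743-16259540. C4b has a near-identical paralog, C4a, so its counts are uncertain. Cfb shares exons with the gene model Gm20547, which had 0 counts in every library.

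Promoter windows from 250 bases before to 50 bases after the start were matched in RefSeq (GRCm38.p6) for 6 of the 9 genes, and C1qa, C4b and Cfb had no match. Those of C1qb and C1qc are shown because these genes had the closest pair of profiles, and that of C3 because, of the 6 genes with a match, it changed most between tumour-bearing and tumour-free microglia. All are on the minus strand, written 5′ to 3′, C1qb at chr4:136886151-136886450, C1qc at chr4:136892865-136893164 and C3 at chr17:57228087-57228386. Capitals mark matches to GAGGAA, the core bound by the myeloid factor PU.1 (C1qb and, on the other strand, C1qc), and to TTGCNNAA, a C/EBP half-palindrome core (C3).
C1qb: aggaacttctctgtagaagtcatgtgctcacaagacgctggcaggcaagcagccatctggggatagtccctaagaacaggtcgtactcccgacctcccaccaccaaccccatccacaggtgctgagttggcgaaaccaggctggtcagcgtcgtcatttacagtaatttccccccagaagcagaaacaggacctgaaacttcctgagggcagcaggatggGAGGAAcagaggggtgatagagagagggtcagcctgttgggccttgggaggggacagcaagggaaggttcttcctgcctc
C1qc: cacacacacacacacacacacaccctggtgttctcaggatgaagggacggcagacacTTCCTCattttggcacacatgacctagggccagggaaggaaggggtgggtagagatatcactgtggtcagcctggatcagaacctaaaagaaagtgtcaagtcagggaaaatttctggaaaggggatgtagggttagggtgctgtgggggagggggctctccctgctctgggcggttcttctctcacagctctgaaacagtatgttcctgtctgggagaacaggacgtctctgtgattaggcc
C3: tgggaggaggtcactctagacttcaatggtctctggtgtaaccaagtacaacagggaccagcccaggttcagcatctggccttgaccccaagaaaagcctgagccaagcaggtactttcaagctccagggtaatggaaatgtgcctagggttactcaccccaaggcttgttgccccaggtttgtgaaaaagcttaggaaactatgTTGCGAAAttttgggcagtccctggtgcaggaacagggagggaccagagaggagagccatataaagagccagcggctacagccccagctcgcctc
Searched on both strands of the 6 windows, GAGGAA was found in 3 (C1qb, C1qc and Cfp), against 28.3% of 32851 promoters of the same length. TTGCNNAA was found in 1 (C3), against 10.8% of promoters, and the NF-kB letters GGG, any 3 bases and TTCC in 1 (C3ar1), against 5.56%. The STAT letters TTCNNNGAA were in none, against 8.3% of promoters. These motifs do not overlap where they were found, and a match is a description of the letters only.

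Total counts ran from 985423 to 18642747 per library, with a median of 11362594. Levels below are CPM, counts relative to the library's total, scaled by the trimmed mean of M values (TMM). In all 11 libraries were doubtful, with under 3000000 counts or over 30000 genes detected, among them libraries 2 and 3 of tumour-free microglia and 1 to 3 of blood monocytes. A further library, granulocytes 1 of the small stage, detected 7531 genes. For microglia and granulocytes, 1 defining marker each followed the labels: P2ry12, a microglial receptor, averaged 1418 to 3153 CPM in the unirradiated and tumour-free groups of microglia and 230 to 297 CPM in BMDM without radiotherapy, and Ly6g, a granulocyte marker, averaged 74.3 and 190 CPM in large-stage and small-stage granulocytes and at most 1.41 CPM in the other groups without radiotherapy. Markers of recruited macrophages did not single out BMDM. At the large stage they summed to 762 to 3590 CPM in BMDM, 6508 to 9035 CPM in monocytes and 1870 to 3840 CPM in granulocytes.

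The C1q genes had their highest medians in microglia of tumour-bearing brains (24 libraries), with C1qa at 1895, 2279 and 2706 CPM (lowest, median, highest), C1qb at 2487, 3000 and 3417 CPM and C1qc at 1871, 2387 and 2620 CPM. In BMDM (24 libraries) C1qa had a median of 1148 CPM with a range of 513 to 2370 CPM. The highest single library of the series was of BMDM for C1qb (3541 CPM) and C1qc (2668 CPM). Monocytes of tumour-bearing brains (23 libraries) had a median of 214 CPM and a range of 77.1 to 490 CPM for C1qa. Granulocytes (23 libraries) had the widest range, from 8.01 to 729 CPM with a median of 33.6 CPM, and blood monocytes had 43.2, 38.2, 12.3 and 6.23 CPM. Tumour-free microglia of all 3 groups (10 libraries) had 1361, 1693 and 2435 CPM for C1qa. Per kilobase of exon the medians of tumour microglia were 2191 CPM per kb for C1qa, 2757 for C1qb and 1236 for C1qc. The group mean was highest in large-stage microglia for all 3 genes, at 2422 ± 157 CPM for C1qa, 3244 ± 123 for C1qb and 2484 ± 105 for C1qc (SD, n = 5). Of the 27 neighbouring pairs of groups in the order of levels, 26 overlapped in their libraries for each C1q gene.

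The levels of the 3 C1q genes went closely together. Over all libraries the median of C1qb over C1qa was 1.36 and that of C1qc over C1qa 0.966, while C1qb itself ran from 13.2 to 3541 CPM. The median of C1qb over C1qa differed between populations, from 1.16 in blood monocytes to 1.63 in tumour monocytes. Without granulocytes 1 of the small stage the ratios ran from 0.774 to 2.44 and from 0.615 to 1.69 (107 libraries). That library had 27.1 CPM of C1qa beside 779 CPM of C1qb and 573 CPM of C1qc, ratios of 28.8 and 21.2, and is the one with 7531 genes. Across the 28 group means of log2(CPM + 1), Pearson's r was 0.998 between C1qb and C1qc, 0.995 between C1qa and C1qb and 0.994 between C1qa and C1qc, and these genes were each other's most alike among 12984 genes that reached 10 CPM in a group.

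**Figure D1:**
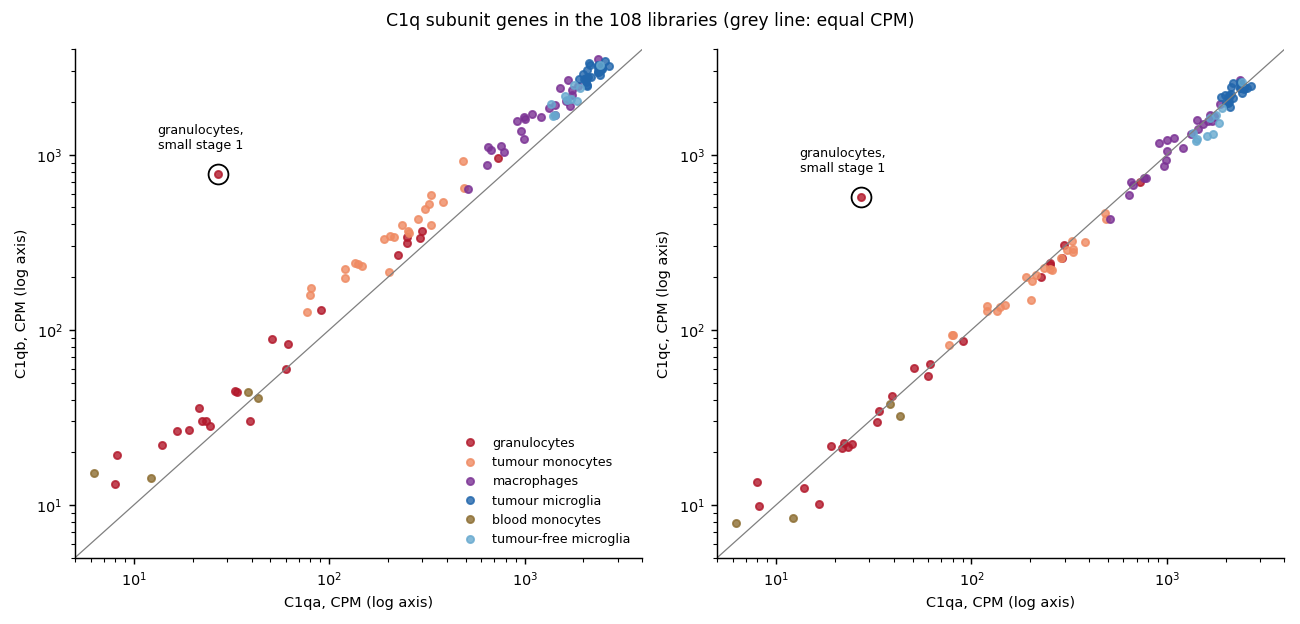
C1qb (left) and C1qc (right) against C1qa in CPM on log axes, 1 point per library coloured by population, with a grey line at equal levels. The points lie along a band parallel to that line (median ratios 1.36 and 0.966), apart from the circled small-stage granulocyte library 1 with 779 CPM of C1qb and 573 CPM of C1qc beside 27.1 CPM of C1qa.

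The components downstream of C1q were spread differently over the populations. C3, the protein on which all routes converge, was highest in granulocytes (median 604 CPM, range 2.29 to 1648) and monocytes of tumour-bearing brains (median 385, range 230 to 713), lower in BMDM (median 86.8) and tumour microglia (median 73.6), and at 0.353 to 2.74 CPM in tumour-free microglia. C4b was highest in tumour microglia, with a median of 173 CPM and a range of 34.6 to 340 CPM, against 54.3 CPM in BMDM, 37.1 CPM in monocytes and 1.10 CPM in granulocytes. Cfb was low throughout, with its highest median of 6.83 CPM in monocytes, and 0 was the median in granulocytes and in tumour-free microglia. Cfp had medians of 409 CPM in monocytes, 381 CPM in BMDM, 191 CPM in granulocytes and 27.1 CPM in tumour microglia, with 4.33 CPM in tumour-free microglia. Per kilobase, the median of C3 in monocytes was 74.9 CPM per kb and that of Cfp 236 CPM per kb, while in tumour microglia C3 had 14.3, C4b 30.3 and Cfb 0.440 CPM per kb, far under the C1q genes.

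The receptor genes divided the populations in another way. C3ar1 had medians of 1025 CPM in tumour microglia, 949 CPM in BMDM and 978 CPM in monocytes, against 18.9 CPM in granulocytes. The cells of tumour-free mice had lower medians than tumour microglia and monocytes, 245 CPM for microglia and 18.3 CPM for blood monocytes. C5ar1 was highest in granulocytes, with a median of 2263 CPM and a range of 1534 to 3514 CPM that lay above every other library of the series. Its medians were 498 CPM in monocytes, 350 CPM in tumour microglia and 296 CPM in BMDM, and the cells of tumour-free mice had 85.7 CPM (microglia) and 66.7 CPM (blood monocytes).

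By group mean, the highest levels were those of granulocytes after 5x2 Gy on day 10 for C3 (976 ± 589 CPM, n = 3), small-stage microglia for C4b (216 ± 90.9 CPM, n = 5), monocytes after 5x2 Gy on day 5 for Cfb (10.6 ± 0.918 CPM, n = 4) and for Cfp (504 ± 315 CPM), monocytes after 5x2 Gy on day 10 for C3ar1 (1299 ± 197 CPM, n = 3) and granulocytes after 1x10 Gy for C5ar1 (2617 ± 168 CPM, n = 3). Neighbours in the order of groups overlapped in 25 to 27 of 27 pairs for every gene. Among the pairs that did not, C3 in microglia after 5x2 Gy on day 5 (24.8 to 67.2 CPM) lay above tumour-free microglia (0.605 to 2.74 CPM), and C5ar1 in large-stage granulocytes (1534 to 3396 CPM) lay above monocytes after 5x2 Gy on day 10 (498 to 909 CPM). The group profiles most like each gene outside the C1q trio, by Pearson's r over 28 group means that share libraries' depth and composition, were Slfn5 (0.951) and Hacd4 (0.945) for C3, Axl (0.937) and Lgals3bp (0.932) for C4b, Ifi208 (0.949) and Gbp6 (0.937) for Cfb, Tlr8 (0.969) and Gpr18 (0.965) for Cfp, Adgre1 (0.971) and Acp2 (0.969) for C3ar1, and Sbno2 (0.966) and Pgs1 (0.965) for C5ar1.

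**Figure D2:**
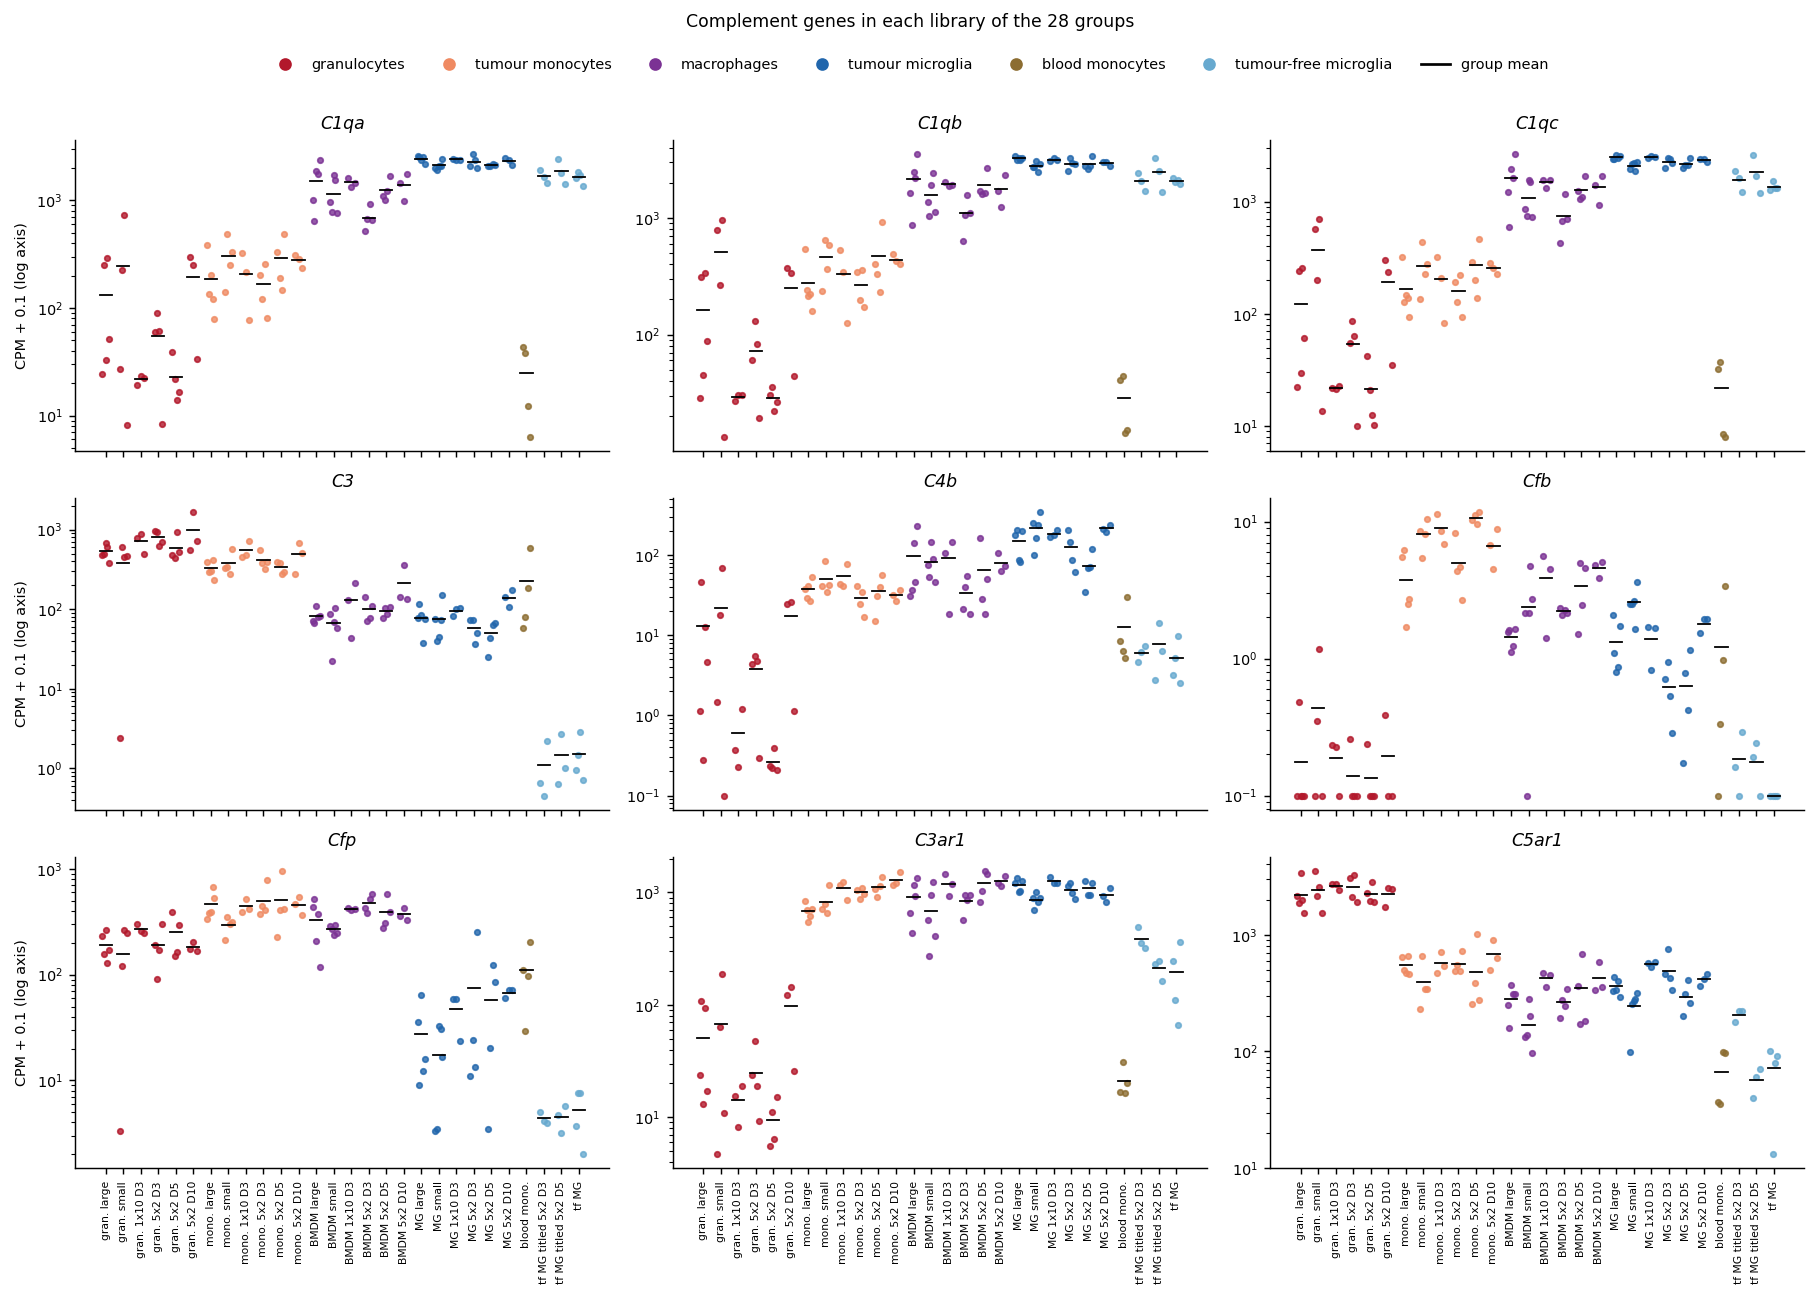
CPM plus 0.1 on a log axis for each of the 9 genes in the 28 groups, 1 point per library coloured by population and a black line at each group's mean. C1qa has medians of 2279 CPM in tumour microglia, 1148 CPM in BMDM, 214 CPM in monocytes and 33.6 CPM in granulocytes, whose groups overlap those of monocytes, C5ar1 is highest in granulocytes (1534 to 3514 CPM), and C3 separates tumour-free microglia (at most 2.74 CPM) from the tumour microglia (at least 24.8 CPM).

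The first comparison asks how complement genes differ in microglia of brains with tumours from those of brains without. In small-stage tumour microglia C3 and C4b were far higher than in tumour-free microglia, Cfb had a few CPM against no counts, and the receptor genes C3ar1 and C5ar1 were also higher, while the C1q genes differed little. C3 had 74.4, 39.8, 44.1, 72.8 and 149 CPM in small-stage microglia, against 0.864, 1.38, 2.74 and 0.605 CPM in tumour-free microglia. The groups were far apart, and C3 rose with a log2 fold change of 6.19 (SE 0.61, adjusted p = 3.4e-08, edgeR's quasi-likelihood test). C4b had 248, 101, 160, 233 and 340 CPM in small-stage microglia, against 3.08, 5.16, 9.59 and 2.46 CPM in tumour-free microglia, and rose by a log2 fold change of 5.66 (SE 0.56, adjusted p = 4.2e-08). Cfb had 2.42, 2.42, 2.54, 1.56 and 3.53 CPM in small-stage microglia, against 0 in each of the 4 tumour-free libraries. Against a floor of 3 counts over that group its mean was at least 34.4-fold higher (adjusted p = 4.4e-05).

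Of the receptors, C3ar1 had 897, 695, 1005, 815 and 886 CPM in small-stage microglia, against 245, 111, 65.8 and 363 CPM in tumour-free microglia, with no overlap, and rose by a log2 fold change of 2.15 (SE 0.29, adjusted p = 6.5e-06). C5ar1 had 98.8, 253, 271, 282 and 317 CPM in small-stage microglia, against 102, 13.1, 79.5 and 91.9 CPM in tumour-free microglia. The lowest small-stage library lay within the tumour-free range, and the log2 fold change was 1.80 (SE 0.36, adjusted p = 0.00096). C1qa averaged 2104 ± 197 CPM in small-stage microglia (n = 5) and 1634 ± 207 CPM in tumour-free microglia (n = 4), which did not pass (log2 0.37, SE 0.14, adjusted p = 0.074). C1qb (log2 0.44, SE 0.14, adjusted p = 0.032) and C1qc (log2 0.63, SE 0.15, adjusted p = 0.0057) rose less than the other genes that passed. Both calls were lost with DESeq2's size factors in place of TMM (adjusted p = 0.31 and 0.073). The C1qb call was also lost without any 1 of tumour-free libraries 3 and 4 and small-stage libraries 1, 3 and 5 (log2 0.38 to 0.44, adjusted p = 0.054 to 0.068), and C1qa passed without tumour-free library 2 (log2 0.45, adjusted p = 0.04). Cfp, at 3.25 to 32.9 CPM in small-stage microglia against 1.90 to 7.57 CPM in tumour-free microglia, did not pass (log2 1.87, SE 0.93, adjusted p = 0.17). In all 7 of the 9 genes rose and none fell, where 15.4% of 19754 genes tested passed in either direction, 7.55% higher and 7.82% lower. The median log2 fold change was 1.87 over the 9 genes, also with Cfb at its bound, and -0.03 over all genes tested. DESeq2's size factors moved that median by -0.19 and put 33.9% in place of 49.1% of the called genes on the higher side. In the fit of the compared groups alone 4 of the 9 passed, without C1qb, C1qc and C5ar1 (adjusted p = 0.11 for C5ar1).

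In large-stage microglia all 9 genes rose against tumour-free microglia, where 31.9% of the genes tested passed, 11.7% higher and 20.2% lower, and for none of the 9 did the libraries of the groups overlap, against 12.2% of the genes tested without overlap. C3 had 77.4, 117, 85.2, 37.3 and 74.5 CPM in large-stage microglia (log2 6.18, SE 0.61, adjusted p = 3.3e-08 against tumour-free microglia). C4b had 177, 204, 85.7, 80.5 and 197 CPM (log2 5.06, SE 0.55, adjusted p = 1.9e-07). Cfb had 1.97, 1, 0.698, 0.765 and 1.63 CPM, at least 16.8-fold over the tumour-free floor (adjusted p = 0.00017). Each of these 3 genes lay above every tumour-free library. C3ar1 had 1217, 1341, 1014, 1037 and 1257 CPM (log2 2.55, SE 0.30, adjusted p = 5.1e-07) and C5ar1 331, 435, 339, 404 and 293 CPM (log2 2.32, SE 0.37, adjusted p = 4.7e-05) in large-stage microglia. Of the C1q genes, C1qc rose most, to 2484 ± 105 CPM in large-stage microglia (n = 5) against 1357 ± 105 CPM in tumour-free microglia (n = 4), a log2 fold change of 0.84 (SE 0.15, adjusted p = 0.00028). C1qa (log2 0.53, SE 0.14, adjusted p = 0.007) and C1qb (log2 0.62, SE 0.14, adjusted p = 0.002) rose less, and both calls were lost with DESeq2's size factors and in the fit of the compared groups alone. Cfp had 35.8, 8.95, 64.3, 12.2 and 15.7 CPM in large-stage microglia (log2 2.47, SE 0.94, adjusted p = 0.044), a call lost without any 1 of the 4 tumour-free libraries or of large-stage libraries 1 and 3 (log2 1.89 to 2.91, adjusted p = 0.056 to 0.12), and with DESeq2's size factors, without the doubtful libraries or in the compared groups alone (adjusted p = 0.067 to 0.076). The median log2 fold change was 2.47 over the 9 genes, also with Cfb at its bound, and -0.26 over all genes tested. DESeq2's size factors moved the second by -0.25 and put 23.4% in place of 36.7% of the called genes on the higher side.

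Fewer cells of a type and less RNA per cell cannot be told apart in such bulk samples. Markers of other cells moved with the same groups. Of 10 astrocyte markers 9 were lower in tumour microglia of either stage, with summed levels of 157 to 356 CPM at the large stage and 128 to 354 CPM at the small stage, against 1152 to 1993 CPM in tumour-free microglia. Of 7 markers of border-associated macrophages, 4 were higher at the large stage and 1 at the small stage, with sums of 78.6 to 325 CPM and 11 to 161 CPM, against 9.53 to 19.7 CPM in tumour-free microglia. Their part in the complement differences was not tested. Microglia markers summed to 7417 to 12106 CPM at the large stage and 6290 to 13440 CPM at the small stage, against 6247 to 16537 CPM without tumours. Without the 11 doubtful libraries 8 of 9 genes passed at the large stage and 6 of 9 at the small stage. The comparisons of both stages share the 4 tumour-free libraries.

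**Figure D3:**
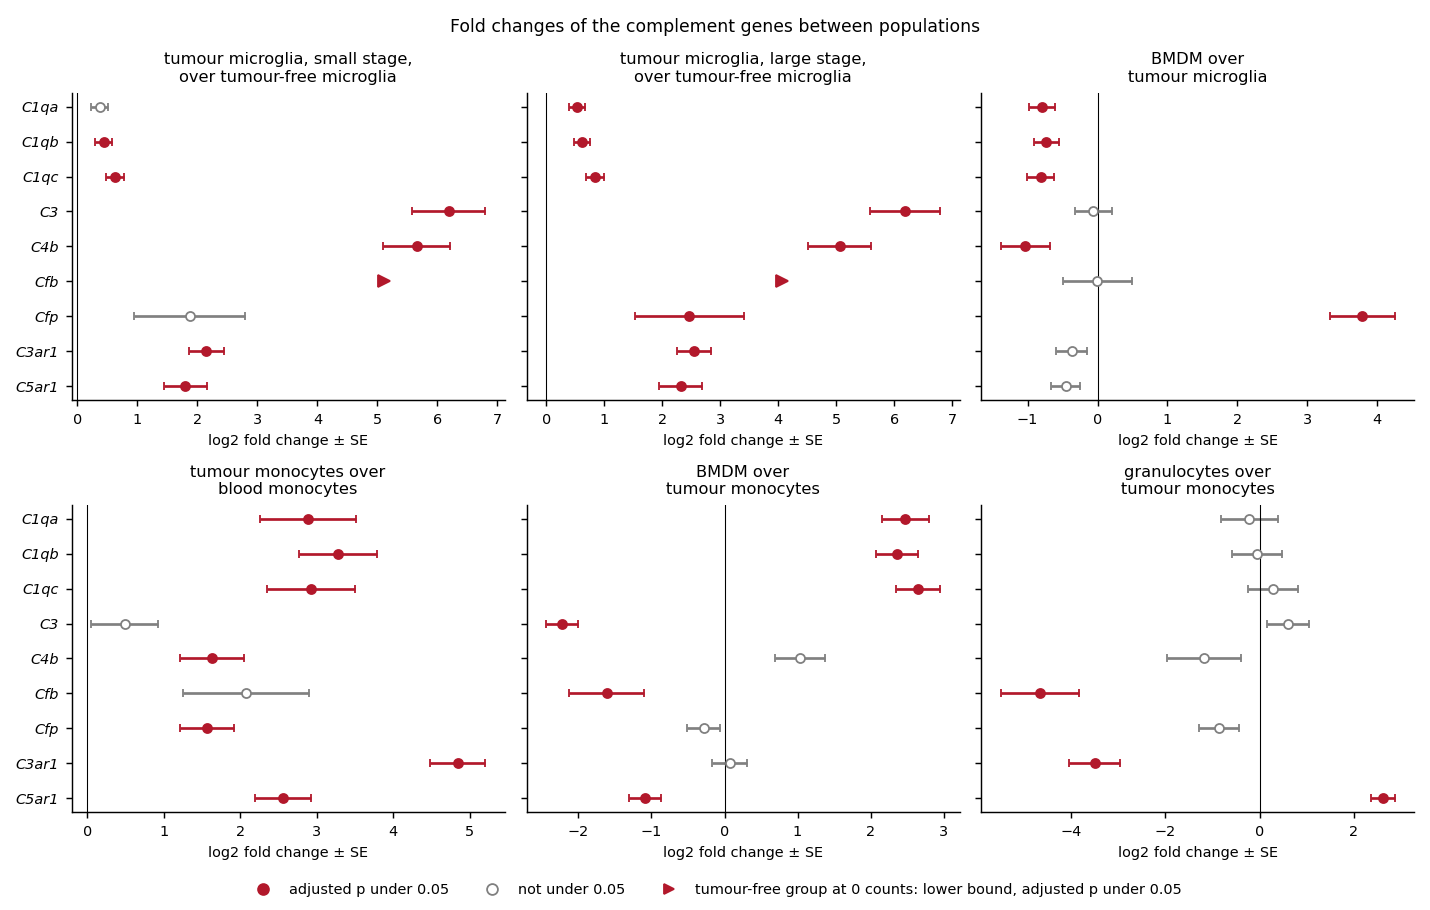
Log2 fold changes with standard errors of the 9 genes in 6 comparisons, filled red where the adjusted p is under 0.05 and open grey elsewhere; triangles are lower bounds where the tumour-free group had 0 counts. Among rises, C3 (6.19 and 6.18) and C4b (5.66 and 5.06) stand out in microglia, Cfp in BMDM over microglia (3.78), C3ar1 in monocytes of the tumour over those of the blood (4.84), and C5ar1 in granulocytes (2.61). In granulocytes Cfb and C3ar1 were lower, with larger fold changes than that of C5ar1.

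The second comparison sets macrophages that came from the bone marrow against microglia of tumour-bearing brains, over both unirradiated stages (10 libraries each). BMDM had more properdin RNA and less of C1q and C4b than microglia. Cfp had a lowest, median and highest level of 118, 280 and 520 CPM in BMDM, against 3.25, 16.1 and 64.3 CPM in microglia. These ranges did not overlap, and Cfp was higher by a log2 fold change of 3.78 (SE 0.47, adjusted p = 3.8e-06). C1qa had 639, 1262 and 2370 CPM in BMDM, against 1895, 2272 and 2572 CPM in microglia, with 9 of 10 BMDM libraries below every microglia library. It fell by 0.80 on the log2 scale (SE 0.19, adjusted p = 0.0032), C1qb by 0.74 (SE 0.18, adjusted p = 0.0038) and C1qc by 0.81 (SE 0.19, adjusted p = 0.0031). C4b had 30.9, 64.5 and 232 CPM in BMDM, against 80.5, 187 and 340 CPM in microglia, and fell by 1.03 (SE 0.35, adjusted p = 0.03). The C4b call was lost without the doubtful libraries (adjusted p = 0.13). It was also lost without any 1 of 11 libraries, namely small-stage microglia 1 and 5, small-stage BMDM 1, 2 and 5, large-stage microglia 1, 2 and 5 and large-stage BMDM 1, 2 and 4 (log2 -1.02 to -0.92, adjusted p = 0.0501 to 0.0645). C3 averaged 75.1 ± 24.9 CPM in BMDM and 77.2 ± 35 CPM in microglia (log2 -0.06, SE 0.26, adjusted p = 0.89). C3ar1 (797 ± 380 CPM in BMDM and 1016 ± 205 CPM in microglia) and C5ar1 (225 ± 92.8 and 302 ± 91.6 CPM in the same order) did not pass, nor did Cfb. C5ar1 passed without small-stage microglia library 1 (log2 -0.54, adjusted p = 0.032) or small-stage BMDM library 3 (log2 -0.58, adjusted p = 0.029). In all 5 of 9 genes passed, where 29.9% of 15103 genes did, with a median log2 fold change of -0.45 over the 9 genes and -0.04 over all genes.

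The large-stage BMDM libraries had the same order by summed C1q as by microglia markers. Library 5 had summed C1q of 8579 CPM, microglia markers of 6573 CPM and 118 CPM of Cfp. Library 2, a doubtful library, had 2102 CPM of C1q, 1175 CPM of microglia markers and 520 CPM of Cfp. The orders differed in BMDM after 5x2 Gy on day 5. There library 1 had 4042 CPM of C1q and 2046 CPM of microglia markers, against 3665 and 2544 CPM in library 2. That library 1 also had 4806 CPM of border-associated macrophage markers. Markers of border-associated macrophages summed to 350 to 1152 CPM in large-stage BMDM and 487 to 2014 CPM in small-stage BMDM. Between BMDM and microglia, 7 of 8 microglia markers were lower, and all 7 markers of recruited macrophages, all 6 of monocytes and 6 of 7 of border-associated macrophages were higher. Their part in the C1q and Cfp differences was not tested.

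The third comparison sets monocytes of tumour-bearing brains (9 libraries over both stages) against blood monocytes of tumour-free mice (4 libraries). The receptor gene C3ar1 changed most: it had a lowest, median and highest level of 546, 705 and 1167 CPM in tumour monocytes, against 16.7, 30.7, 16.4 and 20 CPM in blood monocytes. The groups were far apart, with a log2 fold change of 4.84 (SE 0.36, adjusted p = 2.4e-06). C5ar1 had 229, 471 and 664 CPM in tumour monocytes, against 36.6, 35.6, 98.6 and 96.7 CPM in blood monocytes, and rose by 2.56 (SE 0.37, adjusted p = 0.00037). C1qb had 158, 241 and 645 CPM in tumour monocytes, against 40.9, 44.4, 14.3 and 15.2 CPM in blood monocytes (log2 3.28, SE 0.51, adjusted p = 0.00074). C1qa (log2 2.89, SE 0.63, adjusted p = 0.0052) and C1qc (log2 2.92, SE 0.57, adjusted p = 0.003) rose beside it, so the RNA of all 3 subunits was higher. Cfp rose by 1.56 (SE 0.35, adjusted p = 0.0064) and C4b by 1.63 (SE 0.42, adjusted p = 0.011), with overlapping libraries for C4b. C3 had 230, 327 and 572 CPM in tumour monocytes, against 58.1, 79.1, 182 and 588 CPM in blood monocytes (log2 0.49, SE 0.44, adjusted p = 0.43). Without blood monocyte library 4, which had the 588 CPM, C3 passed (log2 1.46, adjusted p = 0.0012), as did Cfb (log2 3.40, adjusted p = 0.0054, against 2.07, SE 0.83, adjusted p = 0.075 with it), and C4b rose by 2.47. That fit rested on blood monocyte libraries 1 to 3, all of them doubtful, while library 4 was not. Without blood monocyte library 2 the C4b call was lost (log2 1.46, adjusted p = 0.056). In all 7 of 9 genes rose, where 26.3% of 15714 genes passed in either direction and 10.6% were higher. The count of all genes called there, 4127, ran from 1931 without blood monocyte library 2 to 14543 without blood monocyte library 4. The median log2 fold change was 2.56 over the 9 genes and -0.16 over all genes, which DESeq2's size factors moved by -0.24, with 28.1% in place of 40.2% of the called genes higher.

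The blood monocyte libraries differed in what else they held. Of 8 granulocyte markers 5, of 7 B cell markers 5 and of 7 T and NK cell markers 4 were lower in tumour monocytes than in blood monocytes, and 3 of 8 microglia markers were higher, with sums of 731 to 1550 CPM at the large stage and 1061 to 1404 CPM at the small stage, against 151 to 278 CPM in blood. Their part in the C1q difference was not tested. Leaving out the doubtful libraries left 1 blood library, and 4 of the 9 genes then passed, without C4b, Cfp and C5ar1.

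The fourth comparison sets BMDM (10 libraries) against monocytes of tumour-bearing brains (9 libraries), both of which also enter other comparisons here. BMDM had more C1q and less C3 than monocytes. C1qb had a lowest, median and highest level of 874, 1770 and 3541 CPM in BMDM, against 158, 241 and 645 CPM in monocytes (log2 2.36, SE 0.28, adjusted p = 2.3e-05). C1qa (log2 2.48, SE 0.32, adjusted p = 5.7e-05) and C1qc (log2 2.65, SE 0.30, adjusted p = 1.5e-05) rose with it, and the libraries of the groups did not overlap for any C1q gene, where 2.06% of the genes tested had no overlap. C3 had 22.3, 75.9 and 111 CPM in BMDM, against 230, 327 and 572 CPM in monocytes, also without overlap, and fell by 2.22 on the log2 scale (SE 0.22, adjusted p = 4.9e-06). C5ar1 fell by 1.09 (SE 0.22, adjusted p = 0.0021). Cfb fell by 1.61 (SE 0.51, adjusted p = 0.041), a call that was lost without any 1 of 12 libraries, namely small-stage BMDM 1, 3 and 5, small-stage monocytes 1, 3 and 4, large-stage BMDM 1, 3, 4 and 5 and large-stage monocytes 1 and 2 (log2 -1.64 to -1.50, adjusted p = 0.054 to 0.078). The Cfb call was also lost with a block for the replicate number (log2 -1.89, adjusted p = 0.056) and without a filter (log2 -1.65, adjusted p = 0.075). C4b was higher by 1.04 (SE 0.35) without passing (adjusted p = 0.053), and passed without any 1 of small-stage BMDM 2 and 5, small-stage monocytes 2, large-stage BMDM 1, 2 and 4 and large-stage monocytes 5 (log2 1.11 to 1.20, adjusted p = 0.024 to 0.049). C4b also passed with DESeq2's size factors, without a filter, with DESeq2's own test and without the doubtful libraries (adjusted p = 0.014 to 0.047). Cfp (log2 -0.28, SE 0.23, adjusted p = 0.47) and C3ar1 (log2 0.07, SE 0.24, adjusted p = 0.9) did not pass. In all 6 of 9 genes passed, 3 in each direction, where 13.8% of 14939 genes did, 7.22% higher and 6.59% lower, and the median log2 fold change was 0.07 over the 9 genes and 0.04 over all genes. Of 8 microglia markers 6 and of 7 border macrophage markers 5 were higher in BMDM than in monocytes, and their part in the C1q difference was not tested.

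The fifth comparison sets granulocytes against monocytes of tumour-bearing brains (9 libraries each). Granulocytes had more RNA of the C5a receptor gene C5ar1 and less of the C3a receptor gene C3ar1 and of Cfb than monocytes. C5ar1 had a lowest, median and highest level of 1534, 2153 and 3514 CPM in granulocytes, against 229, 471 and 664 CPM in monocytes (log2 2.61, SE 0.25, adjusted p = 3.4e-08). C3ar1 had 4.59, 23.5 and 190 CPM in granulocytes, against 546, 705 and 1167 CPM in monocytes, and fell by 3.49 (SE 0.54, adjusted p = 1.8e-05). Cfb had 0, 0 and 1.08 CPM in granulocytes, against 1.59, 5.38 and 10.4 CPM in monocytes, and fell by 4.66 (SE 0.82, adjusted p = 6.4e-05). These 3 genes were the ones without overlap and the ones that passed, where 19.9% of 14270 genes had no overlap and 49.9% passed. C3 (log2 0.60, SE 0.45, adjusted p = 0.28) and Cfp (log2 -0.86, SE 0.42, adjusted p = 0.091) did not pass. Small-stage granulocyte library 1 had 2.29 CPM of C3 and 3.21 CPM of Cfp, against 454 to 605 CPM and 120 to 265 CPM in the other small-stage libraries. Without it both passed, C3 higher by a log2 fold change of 0.79 (adjusted p = 0.0017) and Cfp lower by 0.67 (adjusted p = 0.012). Cfp also passed with DESeq2's size factors (log2 -0.97, adjusted p = 0.028), without a filter (log2 -0.99, adjusted p = 0.024) and with DESeq2's own test (log2 -0.96, adjusted p = 0.0024). C4b passed without a filter (log2 -1.31, adjusted p = 0.034) and without large-stage granulocyte library 2 (log2 -1.97, adjusted p = 0.04, against -1.18, SE 0.79, adjusted p = 0.22 with it).

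C1q in granulocytes differed widely between libraries of a group. C1qa had 24.4, 251, 32.9, 292 and 51.1 CPM at the large stage and 27.1, 226, 729 and 8.01 CPM at the small stage, and its difference from monocytes did not pass (log2 -0.22, adjusted p = 0.78). Over all 23 granulocyte libraries, the 14 with a summed C1q of 100 CPM or more (at most 2393 CPM) had microglia markers of 309, 717 and 2949 CPM, and the 9 below (34.7 to 78.4 CPM) had 229, 447 and 830 CPM, as lowest, median and highest. That split was made on C1q itself and is a description.

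Large and small stages were compared within each population. None of the 35 tests passed, where 0% of the genes tested did in microglia, in BMDM and in monocytes and 0.0141% in granulocytes. Of the 35, 5 had an unadjusted p under 0.05 and DESeq2's Wald test called 2, against 8.11% and 1.01% of the tests of all genes. In microglia C1qb (3417, 3140, 3273, 3110 and 3277 CPM at the large stage, against 2724, 2724, 3059, 2487 and 2870 CPM at the small stage), C1qc and C3ar1 did not overlap between the stages, all higher at the large stage, where 0.79% of the genes tested did not overlap in either direction. C5ar1 in BMDM averaged 279 ± 80.2 CPM at the large stage and 170 ± 73.8 CPM at the small stage (log2 0.76, unadjusted p = 0.03). Cfb in monocytes averaged 3.63 ± 2 CPM at the large stage and 8.03 ± 2.06 CPM at the small stage (log2 -1.11, unadjusted p = 0.013). C1qb in granulocytes averaged 162 ± 150 CPM at the large stage and 505 ± 440 CPM at the small stage (log2 -1.87, unadjusted p = 0.023, adjusted p = 0.4). With DESeq2's size factors it passed, at log2 -3.20 (adjusted p = 0.029), as did C1qc (log2 -3.17, adjusted p = 0.036) and C5ar1 (log2 -1.70, adjusted p = 0.046, against -0.42 with TMM), and DESeq2's own test called C1qb and C1qc. The all-gene median shifted by -0.20 under those factors. These fits kept small-stage granulocyte library 1, which detected 7531 genes and had 779 CPM of C1qb beside 27.1 CPM of C1qa. With TMM, no test between stages passed when any 1 library was left out.

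Each irradiated group was compared with the mean of the unirradiated stages of its population. No complement gene passed in any population, and few genes of any kind did. In microglia 0 of 36 tests passed, where 0.101% of genes did after 1x10 Gy and 0.0607%, 0.0354% and 0.00506% after 5x2 Gy on days 3, 5 and 10. Of these 36 tests 9 had an unadjusted p under 0.05 (6 higher, 3 lower), and DESeq2 called 0, against 4.39% and 0.348% of the tests of all genes. C5ar1 had 572, 532 and 581 CPM after 1x10 Gy, above all 10 unirradiated libraries (98.8 to 435 CPM), with a log2 fold change of 0.87 (SE 0.32, unadjusted p = 0.0099, adjusted p = 0.52). Of all genes tested there, 3.75% had no overlap and 1.86% lay above in this way. C4b had 34.6, 68.5, 70.8 and 119 CPM after 5x2 Gy on day 5, against 80.5, 187 and 340 CPM (lowest, median, highest) without radiotherapy (log2 -1.32, SE 0.40, unadjusted p = 0.0024). On day 10 its libraries had 213, 195 and 236 CPM. The mean of Cfp after 5x2 Gy on day 3, 74.7 ± 117 CPM, came from library 4, with 251 CPM against 11 to 23.9 CPM in the other 3, and that library also had recruited macrophage markers summing to 1056 CPM against 77.6 to 93.8 CPM and monocyte markers to 360 CPM against 19.6 to 39.3 CPM. Their part in the Cfp level was not tested.

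In BMDM 0 of 36 tests passed, where 0.0063% of genes did after 1x10 Gy and 0% after each schedule of 5x2 Gy. Of the 36 tests 9 had an unadjusted p under 0.05 (5 higher, 4 lower), and DESeq2 called 1, against 7.15% and 0.227% of the tests of all genes. C3 had 143, 355 and 136 CPM after 5x2 Gy on day 10, above all 10 unirradiated libraries (22.3 to 111 CPM), with a log2 fold change of 1.45 (SE 0.35, unadjusted p = 0.00038, adjusted p = 0.41). Without a filter on low counts this test passed (adjusted p = 0.017). Of all genes tested there, 1.8% had no overlap and 1.51% lay above in this way. C1qa had 513, 675, 917 and 653 CPM after 5x2 Gy on day 3, against 639, 1262 and 2370 CPM without radiotherapy (log2 -0.99, SE 0.28, unadjusted p = 0.0015), the gene that DESeq2 called. C1qb (log2 -0.80, unadjusted p = 0.0097) and C1qc (log2 -0.89, unadjusted p = 0.0073) had the same sign on that day. On the other days and after 1x10 Gy C1qa averaged 1242 to 1466 CPM. Differences between BMDM and microglia in their response were tested as interactions for the stage and the 4 schedules, and 0 of 45 passed, where 0.00516% of genes did after 5x2 Gy on day 3 and 0% elsewhere. Of these 45, 5 had an unadjusted p under 0.05 (2 higher, 3 lower), and DESeq2 called 0, against 6.29% and 0.173% of the tests of all genes. The interaction of C1qa on day 3 was -1.01 (SE 0.28, unadjusted p = 0.00089, adjusted p = 0.83).

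In monocytes 0 of 36 tests passed, where 0% of genes did in each schedule. Of the 36 tests 6 had an unadjusted p under 0.05, all higher, and DESeq2 called 1, against 6.67% and 0.522% of the tests of all genes. C3ar1 accounted for 4 of the 6. After 5x2 Gy it averaged 1001 ± 104 CPM on day 3 (n = 4), 1122 ± 190 CPM on day 5 (n = 4) and 1299 ± 197 CPM on day 10 (n = 3), and after 1x10 Gy 1095 ± 207 CPM (n = 3), against 748 ± 179 CPM without radiotherapy (n = 9). The log2 fold changes were 0.41, 0.59, 0.75 and 0.49 in that order, with unadjusted p of 0.017, 0.0012, 0.00026 and 0.011. The adjusted p on day 10 was 0.47, and DESeq2 called that test. Cfb on day 5 had 10.3, 11.1, 9.51 and 11.6 CPM, against 1.59, 5.38 and 10.4 CPM without radiotherapy (log2 0.98, unadjusted p = 0.012).

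In granulocytes 0 of 32 tests passed, where 0% of genes did in each schedule, and Cfb was too low to be tested. Of the 32 tests 12 had an unadjusted p under 0.05, all lower, and DESeq2 called 9, against 4.8% and 0.571% of the tests of all genes. C1qa had 19.2, 23.3 and 22.3 CPM after 1x10 Gy (log2 -2.98) and 39.1, 21.6, 14 and 16.5 CPM after 5x2 Gy on day 5 (log2 -2.83), against 8.01 to 729 CPM without radiotherapy, and 299, 251 and 33.6 CPM on day 10. The irradiated libraries thus lay within the range of the unirradiated ones, whose own spread was large. C4b on day 5 had 0.106 to 0.294 CPM, against 0 to 68.7 CPM without radiotherapy (log2 -6.47), and C3ar1 5.45 to 15.1 CPM, against 4.59 to 190 CPM (log2 -2.54). Adjusted p for these genes ran from 0.30 to 0.46 on day 5 and was 0.77 after 1x10 Gy. C5ar1 stayed between 1733 and 3219 CPM in all irradiated granulocyte libraries.

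**Figure D4:**
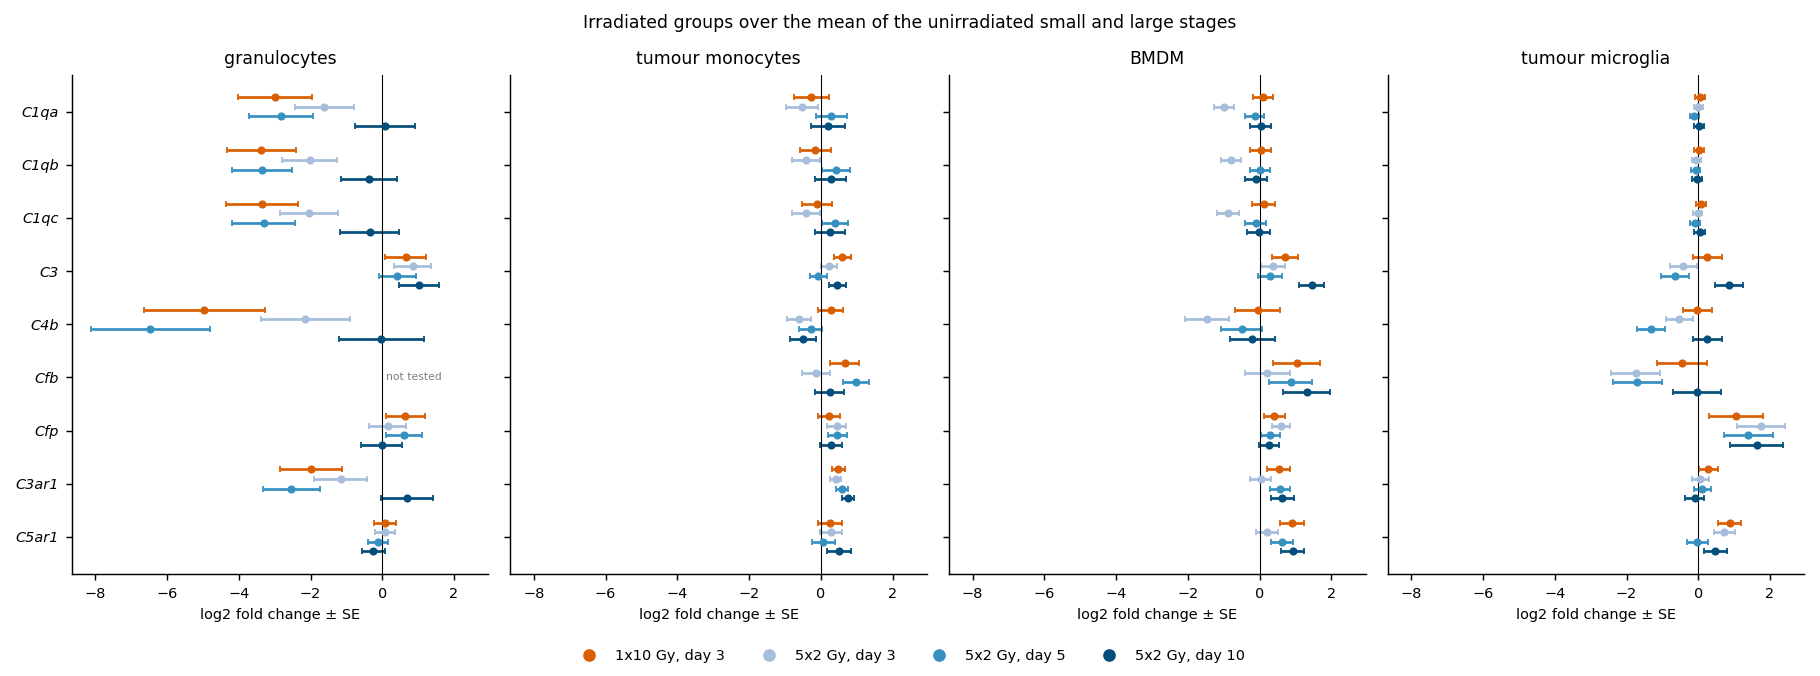
Log2 fold changes with standard errors of the 9 genes in each irradiated group over the mean of the unirradiated stages, by population, with 1 colour for each schedule and day. No test passed; C3ar1 in monocytes lies at 0.41 to 0.75 in all 4 groups, BMDM C3 at 1.45 on day 10, and the widest bars are those of granulocyte C4b.

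Microglia with titles that carry 5x2 were compared with the other tumour-free microglia. On day 3 C5ar1 was the gene of the 9 that passed, where 1.91% of 19754 genes did. It had 179, 222 and 220 CPM in the titled group, against 102, 13.1, 79.5 and 91.9 CPM in tumour-free microglia (log2 1.49, SE 0.39, adjusted p = 0.045), and the call was lost in the fit of the compared groups alone, without the doubtful libraries, and without any 1 of the 3 titled libraries or of tumour-free library 3 (log2 1.43 to 1.58, adjusted p = 0.069 to 0.23). C3ar1 (log2 0.94, adjusted p = 0.075) passed without tumour-free library 1 (log2 1.02, adjusted p = 0.047) or 4 (log2 1.40, adjusted p = 0.013). DESeq2's size factors moved the median of all genes by -0.17 on day 3 and -0.10 on day 5, with 20.5% and 43.5% of the called genes higher in place of 43.1% and 59.0%. On day 5 none passed, where 1.35% of genes did. The count over all genes on day 3, 378, ran from 4 without titled library 2 to 2326 without tumour-free library 1, and that on day 5, 266, from 5 without titled library 3 to 1663 without tumour-free library 1. C3 stayed low in both titled groups, at 0.353 to 2.12 CPM on day 3 and 0.54 to 2.61 CPM on day 5, and C4b had 4.47 to 7.31 CPM and 2.7 to 14.2 CPM. Tumour microglia after 5x2 Gy were then set against the titled group of their day. On day 3 after 5x2 Gy 7 of 9 genes rose against the titled group, where 9.28% of genes passed in either direction, with C3 at 72.8, 72.9, 36.6 and 50.4 CPM in tumour microglia (log2 5.90, SE 0.64, adjusted p = 6.7e-07) and C4b at 204, 146, 86.5 and 61.6 CPM (log2 4.44, SE 0.58, adjusted p = 9e-06). Cfp among the 7 (log2 4.14, adjusted p = 0.014) was lost without tumour microglia library 4 (log2 1.94, adjusted p = 0.22) and without titled library 2 or 3 (adjusted p = 0.079 and 0.088). C1qb (log2 0.53, adjusted p = 0.031), C1qc (log2 0.57, adjusted p = 0.036) and C5ar1 (log2 1.29, adjusted p = 0.038) were each lost without any 1 of 5 of the 7 libraries (titled 2 and 3 and tumour 2, 3 and 4 for both C1q genes, titled 1 to 3 and tumour 1 and 2 for C5ar1), with adjusted p of 0.054 to 0.34. The C1qb and C1qc calls were also lost with DESeq2's size factors (adjusted p = 0.069 and 0.076), without a filter and in the compared groups alone, as was that of Cfp in the last (adjusted p = 0.053). C3ar1 rose by 1.48 (adjusted p = 0.0027), and C1qa (log2 0.48, adjusted p = 0.058) passed without tumour library 4 (log2 0.55, adjusted p = 0.049). On day 5 the 5 genes that rose were C3 (log2 5.2, SE 0.62), C4b (log2 3.28, SE 0.55), Cfp (log2 3.74), C3ar1 (log2 2.41, SE 0.34) and C5ar1 (log2 2.40, SE 0.42), where 14.6% of genes passed. The Cfp call was lost without any 1 of the 3 titled libraries or tumour library 3 (log2 3.09 to 3.90, adjusted p = 0.058 to 0.081). C1qc (log2 0.28) passed without titled library 1 (log2 0.61, adjusted p = 0.019) and Cfb (log2 2.68) without tumour library 1 (log2 3.03, adjusted p = 0.033).

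The other genes of complement were followed as a list of 39. Of these, 18 reached a mean of 10 CPM in some group, 21 did not, and 2 never reached 1 CPM. The components that C1q and C3 act with were mostly low. Cfd, the protease that activates factor B, had no group mean above 0.0208 CPM, C1ra, a protease that binds C1q, had its highest group mean at 15.1 CPM (BMDM after 1x10 Gy), and of the 7 genes of the terminal pathway 1 reached 10 CPM (C8g, 10.2 CPM in small-stage monocytes). Library 4 of that group had 26.4 CPM of C8g, beside 1045 CPM of Alb, the gene of serum albumin. Every other library of the series had at most 8.67 CPM of C8g. Abundant in some group were receptors and regulators. Itgb2, the beta chain of complement receptors 3 and 4, reached 2203 CPM. Colec12, a scavenger receptor of the collectin family, reached 691 CPM and Cr1l, a membrane regulator, 344 CPM. Clu, a secreted regulator of the terminal complex, reached 1034 ± 645 CPM in tumour-free microglia titled 5x2 of day 5. It averaged 8.96 CPM in small-stage and 9.25 CPM in large-stage tumour microglia.

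In small-stage microglia against tumour-free microglia 8 of 30 tested genes of this list rose and 2 fell, and at the large stage 8 rose and 9 fell, where 15.4% and 31.9% of all genes passed. The median log2 fold changes of the list were -0.05 and -0.15. Itgax, the alpha chain of complement receptor 4, rose to 99.3 ± 24.4 CPM in small-stage microglia, against 9.26 ± 2.57 CPM in tumour-free microglia (log2 3.40, SE 0.41, adjusted p = 1.8e-06), and by 2.87 at the large stage. Itgam, the alpha chain of complement receptor 3, rose by 1.07 and Itgb2 by 1.11 at the small stage, and by 0.87 and 1.06 at the large stage. Colec12 averaged 473 ± 222 CPM at the large stage and 219 ± 87.7 CPM at the small stage, against 55.7 ± 32.3 CPM without tumours (log2 3.05 and 2.0), and C1ra rose by 2.25 at the small stage. Clu fell, to 9.25 ± 13.1 CPM at the large stage and 8.96 ± 13.5 CPM at the small stage, against 233 ± 166 CPM in tumour-free microglia (log2 -4.74 for each stage). It moved with the astrocyte markers given above, of which 9 of 10 were lower, and their part in it was not tested. Hc, the gene of C5, fell by 8.24 at the large stage, to 0.0167 ± 0.0374 CPM against a tumour-free mean of 7.85 ± 14.4 CPM, in which library 3 had 29.5 CPM. Others of the 9 that fell also had a tumour-free SD above the mean. These were C7 (3.86 ± 7.02 CPM), Cfi (3.97 ± 7.41 CPM), C9 (2.05 ± 3.25 CPM) and Cd55 (5.74 ± 8.76 CPM). Tumour-free library 3, doubtful with 985423 counts, had the highest levels of Hc, C7 and Cfi.

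In BMDM against microglia 3 of 21 listed genes rose and 4 fell, a share near the 29.9% of all genes that passed. Cd93, a receptor once taken for a C1q receptor, averaged 73.8 ± 43.0 CPM in BMDM and 2.15 ± 3.04 CPM in microglia (log2 5.18), and Fcna, a ficolin of the lectin route, rose by 4.17 and Itgax by 1.16. Itgam averaged 177 ± 70.7 CPM in BMDM and 498 ± 121 CPM in microglia (log2 -1.52), and Masp1 fell by 1.77. In tumour against blood monocytes 3 of 30 rose and 5 fell, a share near the 26.3% of all genes that passed, among them Cd93 (log2 1.82), Colec12 (log2 1.58) and Itgam (log2 0.86) upward and Cd55 (log2 -5.63), Cr2 (log2 -5.50) and Fcnb (log2 -3.67) downward. Cr2, complement receptor 2, is a B cell gene, and B cell markers were lower in the same comparison. In BMDM against monocytes 5 of 23 rose and 3 fell, where 13.8% of all genes passed, with Fcna (log2 3.84), Vsig4 (log2 4.41), Masp1 (log2 2.95), C2 (log2 2.68) and Itgax (log2 1.21) higher and Cd93 (log2 -1.63) lower. Most of these were low in BMDM, with Vsig4 at 1.52 ± 2.17 CPM, Masp1 at 2.34 ± 1.74 CPM and C2 at 4.19 ± 3.85 CPM. Fcna averaged 19.3 ± 22.5 CPM in BMDM, an SD above the mean. In blood monocytes Cd55, Cr2 and Fcnb averaged 8.26, 8.66 and 9.21 CPM.

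In granulocytes against monocytes 7 of 20 listed genes rose and 8 fell, where 49.9% of all genes passed, 23% higher and 26.9% lower. C5ar2, the second C5a receptor, averaged 140 ± 124 CPM in granulocytes and 6.26 ± 4.47 CPM in monocytes (log2 4.81, SE 0.69, adjusted p = 7.3e-06), so both C5a receptor genes were higher in granulocytes. The membrane regulators Cd46 (log2 3.99) and Cd55 (log2 4.92) and the integrin gene Itgb2 (log2 1.35) were higher too, and Colec12 (log2 -4.01) and Cd93 (log2 -2.36) were lower. Cd55 was low, at 6.07 ± 4.29 CPM in granulocytes. The median log2 fold change of the list was 0.64, against -0.13 over all genes tested. No gene of the list passed between stages or after radiotherapy within a population. Of the tumour-free groups, the titled ones had more Cd59a, a membrane inhibitor of the terminal complex, than tumour-free microglia (log2 2.33 on day 3 and 2.62 on day 5). Its levels were 25.8 ± 25.4 and 31.1 ± 22.4 CPM (n = 3 each), against 4.48 ± 3.15 CPM (n = 4). In the fit of the compared groups alone no gene of any kind passed on either day. Irradiated tumour microglia had more Itgax (log2 3.92 and 4.11) and Colec12 (log2 2.15 and 2.68) and less Clu (log2 -7.05 and -7.02) than the titled groups on days 3 and 5. Clu averaged 874 ± 758 and 1034 ± 645 CPM in those titled groups, and the part of other cells in this difference was not tested.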

How the data were processed

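Myeloid cells of mouse brain and blood were profiled by RNA-seq after sorting. The authors' deposited table holds raw whole-number counts for 49585 genes and was used as deposited. The build GRCm38 and the tools TopHat2 2.0.14, HTSeq and FastQC come from the submitters' processing notes, with DESeq2 1.18.1. The strand setting of the counter and the annotation are not given in the sources used, so overlapping genes may share reads.

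Groups were taken from titles, cell type, tumour stage and radiotherapy fields. With R 4.3.3 and edgeR 4.0.16, genes passing filterByExpr at its defaults were tested by the quasi-likelihood method after TMM scaling, with 1 mean per group. Adjustment was by Benjamini-Hochberg over all genes tested, with a threshold of 0.05. Within-population comparisons used all libraries of the population (with tumour-free ones for microglia), and comparisons of populations the unirradiated groups concerned. Total counts of 985423 to 18642747 per library set the precision of low genes such as Cfb, and all SD are between libraries.

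Alternatives were DESeq2's size factors (RLE), no filter, the Wald test of DESeq2 1.42.0, a replicate block, the compared groups alone, other reference stages for radiotherapy, and leaving out single or doubtful libraries. The fits were tested on simulated data. The 9 genes and all lists (39 further complement genes, markers of 14 cell types) were chosen with earlier results of these data known. Of the wider list, called genes with the smallest adjusted p (up to 6 in the comparisons of populations and of tumour-free cells, up to 3 elsewhere) and the highest of each list were named. Likeness of profiles was Pearson's r over group means, with the 2 highest genes named. The values of 1 gene of the wider list are not reported here.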

Additional observations from a re-analysis of the deposited data

Results flagged for a closer look

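In each group of 4 or 5 libraries the highest and the lowest were set against the others by Dixon's test at the 95% level. Of 161 such sets over the 9 genes, 13 had a library apart from the rest, and chance gives about 1 in 20. In monocytes, large-stage library 1 had 538 CPM of C1qb (others 158 to 241 CPM) and 319 CPM of C1qc (others 92.9 to 147 CPM), small-stage library 2 had 84.0 CPM of C4b (others 34.8 to 42.6 CPM), and library 3 after 5x2 Gy on day 5 had 1018 CPM of C5ar1 (others 257 to 384 CPM). In BMDM after 5x2 Gy on day 5, library 4 had 2662 CPM of C1qb (others 1612 to 1708 CPM). In microglia after 5x2 Gy on day 3, library 4 had 251 CPM of Cfp (others 11 to 23.9 CPM), the library with 1056 CPM of recruited macrophage markers. Blood monocyte library 4 had 29.8 CPM of C4b (others 5.08 to 8.34 CPM). In granulocytes, library 3 after 5x2 Gy on day 5 had 931 CPM of C3 (others 440 to 516 CPM) and 0.294 CPM of C4b (others 0.106 to 0.136 CPM), and large-stage library 2 had 46.3 CPM of C4b (others 0.181 to 12.5 CPM). Cfb was at 0.381 CPM in large-stage granulocyte library 2, at 0.160 CPM in library 1 after 5x2 Gy on day 3 and at 0.136 CPM in library 1 after 5x2 Gy on day 5, where the other libraries of each group had 0. A set with counts in only 1 library is always flagged by this test, so these Cfb sets were flagged by construction.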

How the results depend on the processing

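No log2 fold change past the threshold changed sign under any alternative. The counts of called genes among the 9 that moved by more than 1.5 times were these. Against tumour-free microglia, the fit of the compared groups alone called 4 in place of 7 at the small stage and 5 in place of 9 at the large stage. At the large stage C1qa, C1qb and Cfp were tested and lost (adjusted p = 0.076 to 0.24), and the remaining gene had no test in that fit. Without the doubtful libraries 4 in place of 7 were called in tumour against blood monocytes. In granulocytes against monocytes 5 in place of 3 were called without a filter and, chosen after seeing the data, without the library under 10000 genes. Between stages RLE scaling called 3 and DESeq2 2 in place of 0. After radiotherapy DESeq2 called 1 in BMDM, 1 in monocytes and 9 in granulocytes in place of 0, and the fit without a filter 1 in BMDM and 9 in granulocytes. In titled 5x2 against tumour-free microglia DESeq2 called 2 in place of 1, and the replicate block, the compared groups alone and the fit without doubtful libraries 0. The cause was not tested.

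Leaving out each library in turn gave 6 to 8 calls in small-stage and 8 to 9 in large-stage microglia, 4 to 6 in BMDM against microglia, 6 to 9 in tumour against blood monocytes, 5 to 7 in BMDM against monocytes and 3 to 5 in granulocytes against monocytes. It gave 0 to 2 in titled 5x2 microglia, 8 to 13, where 12 were reported, in tumour microglia after 5x2 Gy against them, and 0 to 0 between stages, after radiotherapy and for the interactions.

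Over all genes, leaving out 1 library gave 4110 to 7178 calls in large-stage microglia (lowest without tumour-free library 3), 0 to 380 between granulocyte stages (highest without small-stage library 2), 883 to 1745 on day 3 (lowest without titled library 3) and 1370 to 2316 on day 5 (lowest without titled library 3) in tumour against titled microglia, and 0 to 1158 for the interaction of stage (highest without small-stage microglia library 5).

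Same-numbered libraries share only a number in the labels. Their deviations correlated over 0.1 in 18 of 24 pairs of BMDM with microglia, 7 of 9 of BMDM with monocytes, 6 of 9 of granulocytes with monocytes and 8 of 30 within a population, and 37 of 48 BMDM and microglia libraries correlated best with their own number. With the replicate block 6, 8, 5, 7, 5 and 4 genes were called in the comparisons of populations in the order above, 0 between stages and after radiotherapy, and 8 in tumour against titled microglia. With the block C4b passed in granulocytes against monocytes (log2 -2.99, adjusted p = 0.036).

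Over all genes, 3035 were called in small-stage microglia against tumour-free microglia, where the compared groups alone gave 466, leaving out doubtful libraries 1359 and the block 1979. At the large stage 6309 were called, against 1095, 2955 and 3878 under the same 3 settings. Tumour against blood monocytes had 4127, against 24097 without a filter and 211 without doubtful libraries. Large against small granulocytes had 2, against 1653 with RLE scaling, 616 with DESeq2, 331 without a filter and 0 with the block, the groups alone or no doubtful libraries. In the other populations 0 differed by stage, where DESeq2 called 8 to 20 and the fit without a filter up to 158. After radiotherapy 0 to 20 genes were called, against 2 to 186 with DESeq2 and up to 218 without a filter. Interactions had 0 or 1, against 1 to 147 with DESeq2, and 2062 without a filter for the stage. Titled 5x2 against tumour-free microglia had 378 on day 3 and 266 on day 5, against 2357 and 2030 with DESeq2, 743 and 451 without a filter, 10 and 26 with the block, 89 and 530 without doubtful libraries and 0 in the groups alone, and 674 on day 3 with RLE scaling. Tumour microglia against the titled ones had 1834 and 2888 on these days, against 3339 and 5223 without doubtful libraries, and 2760 on day 3 with DESeq2. The median over all genes shifted with RLE scaling by -0.20 in large against small granulocytes and by -0.28 to -0.07 in irradiated ones.

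DESeq2 gave C5ar1 no p in granulocytes against monocytes (log2 3.45), between granulocyte stages or in any irradiated granulocyte group. Its counts of calls there thus cover the other genes only. Cfb in BMDM after 5x2 Gy on day 10 had no adjusted p. Low genes such as Cfb and granulocyte C4b are limited by depth, and the group means of the 9 genes stayed within 1 SD in 210 of 252 cases with CPM by total count and 222 with RLE factors.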

Other observations

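Small-stage monocyte library 4 had complement genes made mainly in the liver at levels above those of the other 107 libraries. It had 28.8 CPM of C9, 26.4 CPM of C8g, 21.5 CPM of C4bp, 15.6 CPM of C8a, 14.9 CPM of Serping1, 11.3 CPM of Mbl2, 9.36 CPM of C8b, 5.98 CPM of Mbl1 and 5.33 CPM of C1s1. It also had 1045 CPM of Alb, the gene of serum albumin, against at most 0.674 CPM in the other 22 monocyte libraries of tumour-bearing brains, and 136 CPM of Apoa1. Its C3 of 572 CPM ranked 16 among all libraries and its C4b of 42.6 CPM ranked 47. Tumour-free microglia library 3 had the highest levels of Hc (29.5 CPM), C7 (14.4 CPM) and Cfi (15.1 CPM). These genes were chosen after their values were seen.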
